A study of Mus musculus with 18 samples.

Results

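Respiratory complexes II to V are described here through the nuclear genes of their subunits and of cytochrome c. A gene was a member if its symbol began with Uqcr, with Cox followed by a number from 4 to 8 and a letter, or with Atp5, or was Sdha to Sdhd, Cyc1 or Cycs. The pseudogene Cox7c-ps1 was left out. The count tables held 40840 genes, and 49 of them were members, 4 in complex II, 9 in complex III, 1 for cytochrome c, 18 in complex IV and 17 in complex V. Liver was taken from female C57BL/6 mice that had been ovariectomized, in 2 models of obesity. Wild-type mice in the DIO model were fed a high-fat diet (0.2% cholesterol, with fat giving 45% of the calories), whereas leptin-deficient ob/ob mice were fed a normal AIN-76A diet. Mice of each model received vehicle, 17β-estradiol (E2, 5 µg/kg/day) or the pathway-preferential estrogen PaPE-1 (300 µg/kg/day) from a minipump for 6 weeks. PaPE-1 is a synthetic ligand made to favor extranuclear over nuclear estrogen receptor signaling. Each of the 6 groups held 3 RNA-seq libraries, 18 in all, while the extraction label speaks of fewer samples per group. All mice lacked their ovaries, the controls included, so no group had the estrogen of an intact female, and ages are not given. The study calls the libraries biological replicates, and the labels do not tie them to mice, so p-values measure the spread between these libraries.

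Complex II (succinate dehydrogenase) passes electrons from the citric acid cycle to ubiquinone, complex III passes them on to cytochrome c, and complex IV (cytochrome c oxidase) hands them to oxygen. Complexes III and IV pump protons as they do so, and complex V (ATP synthase) lets the protons flow back to make ATP. The hepatocyte is rich in mitochondria and uses this chain to burn fatty acids. Complexes III, IV and V also hold subunits encoded by mitochondrial DNA, whose protein-coding transcripts were not analysed here.

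Nuclear genes of the respiratory chain are known for promoters with sites of NRF1, of ETS factors such as GABP and of YY1. RefSeq promoter windows (GRCm38.p6, 250 bases before to 50 after the start) were at hand for 37 members. On either strand the NRF1 letters (GCGCA, any base, then GCGC) lay in 10 of 37 members (27%), against 5.19% of all 27025 genes with a window. The ETS letters CCGGAAG lay in 13 of 37 (35.1%, 9.93% of all genes) and the YY1 letters AANATGGCG in 3 of 37 (8.11%, and 2.76% of all genes). At least 1 of the 3 was present in 21 members (56.8%) and in 15.9% of all genes. The 100 bases before the start are printed below, 5′ to 3′ on the strand of the gene, with matches in capitals. Uqcrh had the largest fold change under PaPE-1 in DIO liver. Uqcr11 and Atp5h passed the test for E2 against vehicle in ob/ob liver. Within the printed bases Sdhd carried both NRF1 and ETS letters, and the muscle isoform gene Cox7a1 is set beside them as a member with none.
Uqcrh (chr4:116075071-116075170, minus strand): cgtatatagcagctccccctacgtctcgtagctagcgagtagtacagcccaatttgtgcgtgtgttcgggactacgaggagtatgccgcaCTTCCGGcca
Uqcr11 (chr10:80406822-80406921, minus strand): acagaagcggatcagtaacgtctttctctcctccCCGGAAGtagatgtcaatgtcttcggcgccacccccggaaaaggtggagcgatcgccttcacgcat
Sdhd (chr9:50603850-50603949, minus strand): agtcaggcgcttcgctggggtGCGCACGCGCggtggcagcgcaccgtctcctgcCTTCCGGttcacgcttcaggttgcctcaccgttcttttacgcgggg
Atp5h (chr11:115419920-115420019, minus strand): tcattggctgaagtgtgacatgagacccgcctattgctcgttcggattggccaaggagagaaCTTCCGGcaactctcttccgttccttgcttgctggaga
Cox7a1 (chr7:30184071-30184170, plus strand): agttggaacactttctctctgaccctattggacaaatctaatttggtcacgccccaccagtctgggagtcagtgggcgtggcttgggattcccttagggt
The capitals CTTCCGG in Uqcrh, Sdhd and Atp5h are the ETS letters read on the opposite strand, CCGGAAG in Uqcr11 is on the strand of the gene, and GCGCACGCGC in Sdhd is the NRF1 match. A match describes letters in this window and was not tested for binding. Whether matches go with fold changes was not tested either, and Sdha, slightly negative under PaPE-1 in DIO liver, also held NRF1 matches.

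The libraries held 10470665 to 21703791 counts, and the members took 0.828% to 1.15% of them in DIO liver and 1.18% to 1.38% in ob/ob liver. The models were deposited in separate count tables, so levels are compared within a model. Levels are given as RPKM, counts scaled by merged exon length and by library size after TMM. Fold changes are log2 values from edgeR's quasi-likelihood test with Benjamini-Hochberg adjustment over all genes that passed a filter on low counts, 13884 in DIO and 13433 in ob/ob liver. In each model 43 of the 49 members passed. In these RNA data fewer cells of a type and less RNA per cell cannot be told apart.

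The members spanned a wide range of levels. In DIO vehicle liver, Atp5b, the catalytic β subunit of ATP synthase, was highest at 650 ± 64.2 RPKM (SD, n = 3). Next came Cox6b1 at 486 ± 28.9, Atp5a1, the α subunit, at 474 ± 58.5, and Cox4i1 at 454 ± 22.9, which do not differ beyond their spread. In ob/ob vehicle liver Cox7c led at 1014 ± 89.4 RPKM, followed by Cox4i1 at 947 ± 81.4 and Cox6a1 at 827 ± 69.2, and neighbours in this order overlapped within their SD. Among members that passed the filter, Atp5l, Cox7a1 and Cycs were the 3 lowest in both models, at 1.80, 4.11 and 14.1 RPKM in DIO vehicle liver. Reads that map to several places were not counted, and part of the reads of genes with near-identical copies, such as Atp5l and Cycs, could be lost in this way. The size of that loss was not tested.

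**Figure D1:**
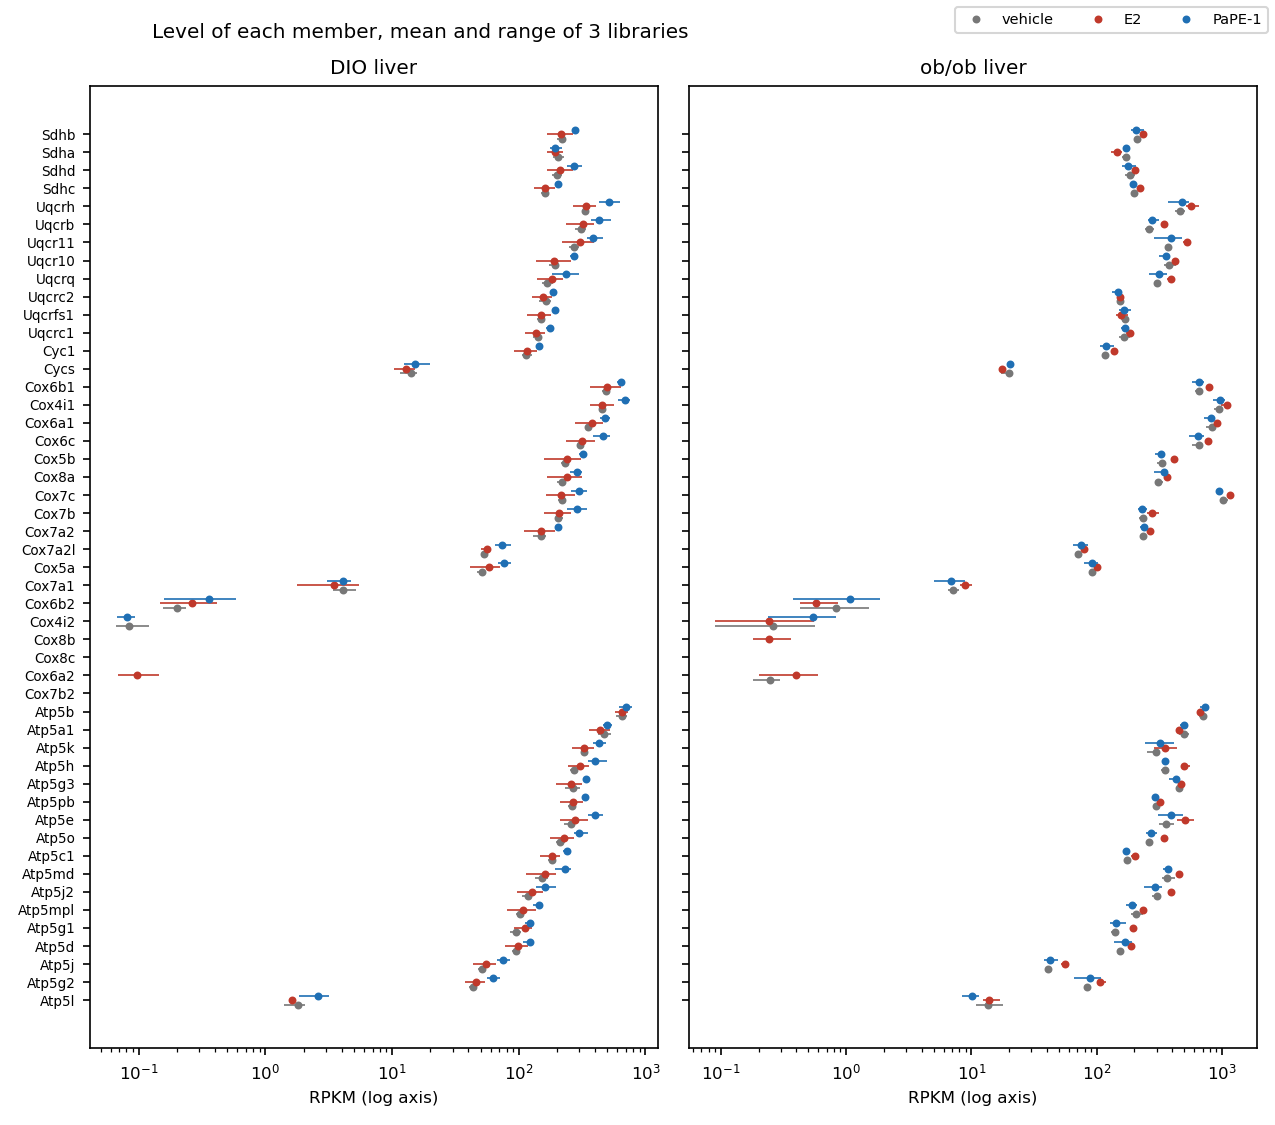
Level of each member in RPKM (log axis) in DIO and ob/ob liver, with points for the mean of 3 libraries and lines from the lowest to the highest library. Gray is vehicle, red E2 and blue PaPE-1, and groups with a library at 0 are not drawn. Most members lie above 40 RPKM, and Atp5l, Cycs, Cox7a1 and the tissue isoform genes lie apart on the left.

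The tissue isoforms followed the pattern known for liver. Subunits 6a, 7a and 8 of complex IV have a liver form and a heart and skeletal muscle form. In DIO vehicle liver the liver form Cox6a1 measured 366, 331 and 349 RPKM, whereas the muscle form Cox6a2 had 5 reads in all 9 DIO libraries and 21 in the 9 ob/ob libraries. Cox7a2, the liver form of subunit 7a, measured 165, 129.9 and 153 RPKM, and its muscle counterpart Cox7a1 3.75, 3.42 and 5.16. Cox8a measured 231, 222 and 199.7 RPKM, and the muscle gene Cox8b had 7 reads over the DIO libraries and 5 over the ob/ob libraries. The ubiquitous Cox4i1 stood at 462, 428 and 472 RPKM, beside the lung form Cox4i2 with 10 reads over the DIO and 34 over the ob/ob libraries. The testis form Cox6b2 had 29 reads in DIO and 69 in ob/ob liver. Cox7b2 and the testis form Cox8c had no read in any of the 18 libraries. These 6 genes failed the filter in both models and have no fold change within a model. The fit over all 18 libraries kept 44 members, so it took in at least 1 of these 6 genes of few reads. The 8 muscle markers that were looked up summed to at most 1.65 CPM in any library. Subunit c of ATP synthase is made from 3 genes that encode the same mature protein. Atp5g3 was the highest of them in DIO vehicle liver at 305, 231 and 259.9 RPKM, above Atp5g1 at 103, 84.5 and 99.5 and Atp5g2 at 44.5, 40.5 and 44.5. The same order held in ob/ob vehicle liver, where Atp5g3 measured 446, 468 and 442, Atp5g1 129, 149 and 142 and Atp5g2 79.9, 85.1 and 83.8.

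The first comparison asked how PaPE-1 changed these transcripts in DIO liver. Subunit genes of all 4 complexes lay higher in PaPE-1 than in vehicle libraries, but no single member passed the adjusted test. The log2 fold change was above 0 for 42 of the 43 members (47.1% of all genes were above 0), with a median of 0.46 against -0.03 over all genes. The 3 libraries of each group did not overlap, PaPE-1 being higher, for 35 members (16.4% of all genes). By edgeR's quasi-likelihood test 29 members were higher at an unadjusted p under 0.05 (11.4% of all genes), and 0 at an adjusted p under 0.05 (0% of all genes). DESeq2 placed 9 of 41 members higher at an adjusted p under 0.05 (4.72% of all genes), and edgeR fitted on only the 2 groups compared placed 10 higher (3.43%). The count was also 8 (2.74%) when replicate 1 of the E2 group was left out, a library whose members lay far below the other E2 libraries. These higher values came with a gradient of fold change on gene length across the whole transcriptome, described after the members.

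In complex II, 3 of 4 subunits lay higher and the median was 0.36. Sdhd, a membrane anchor, measured 220.2, 183 and 199 RPKM in vehicle, 166, 266 and 205 in E2 and 314, 238 and 271 in PaPE-1, with PaPE-1 above vehicle in all libraries (log2 fold change 0.45 ± 0.18, SE, as in the brackets that follow). Sdhb, the iron-sulfur subunit, measured 233, 199 and 221 RPKM in vehicle, 167, 268 and 212 in E2 and 286, 291 and 261 in PaPE-1 (0.36 ± 0.17). The 3 PaPE-1 values were again above the vehicle values, and an E2 library reached the same range. The other anchor, Sdhc, measured 167, 151 and 167 RPKM in vehicle, 131, 193 and 155 in E2 and 209, 207 and 201 in PaPE-1 (0.35 ± 0.15). Sdha, the flavoprotein that oxidizes succinate, was the 1 member of all 43 below 0. It measured 228, 188 and 192 RPKM in vehicle, 166, 224 and 184 in E2 and 177, 219 and 186 in PaPE-1, and the groups overlapped (-0.06 ± 0.16, 95% interval -0.41 to 0.28). Sdha has the longest merged exons of the 4 genes (2859 bases).

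All 9 genes of complex III lay above 0, with a median of 0.47. Uqcrh, the hinge protein between cytochrome c1 and cytochrome c (chr4:115924162-115932267, GRCm39), had the largest value of any member. It measured 348, 318 and 341 RPKM in vehicle, 268, 404 and 337 in E2 and 491, 431 and 631 in PaPE-1, and the lowest PaPE-1 library stood above every vehicle and E2 library (0.63 ± 0.18, adjusted p = 0.101 by edgeR and 0.0245 by DESeq2). The small subunit Uqcr10 measured 206, 173 and 196 RPKM in vehicle, 137, 257 and 176 in E2 and 271, 253 and 296 in PaPE-1 (0.51 ± 0.20), and Uqcr11 measured 301, 247 and 265 RPKM in vehicle, 221, 394 and 297 in E2 and 347, 353 and 458 in PaPE-1 (0.51 ± 0.20). For both, PaPE-1 stood above vehicle in every library and 1 E2 library came into the PaPE-1 range. Uqcrb and Uqcrq, named for ubiquinone binding, had 0.47 and 0.48. The Rieske iron-sulfur protein Uqcrfs1 had 0.38, cytochrome c1 (Cyc1) 0.35, and the core proteins Uqcrc1 and Uqcrc2 0.32 and 0.19. Cytochrome c itself, the mobile carrier and one of the proteins the study assayed, had a smaller value than any of the 9. Cycs measured 15.6, 11.4 and 15.1 RPKM in vehicle, 10.3, 15.2 and 12.8 in E2 and 19.9, 12.5 and 12.95 in PaPE-1, and 1 PaPE-1 library stood above the other two, which lay among the vehicle values (0.11 ± 0.21, 95% interval -0.34 to 0.55).

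Complex IV had all 12 genes tested above 0, with a median of 0.46. Cox4i1, the regulatory subunit that the study also assayed as protein (chr8:121394964-121400948), measured 462, 428 and 472 RPKM in vehicle, 364, 568 and 432 in E2 and 754, 602 and 711 in PaPE-1. All PaPE-1 libraries exceeded all others (0.60 ± 0.17, adjusted p = 0.0995 by edgeR and 0.0205 by DESeq2). Cox6c measured 309, 288 and 310.2 RPKM in vehicle, 234, 398 and 307 in E2 and 477, 385 and 521 in PaPE-1, where 1 E2 library reached the lowest PaPE-1 value (0.61 ± 0.19). Cox7a2l measured 53.9, 54.3 and 50.6 RPKM in vehicle, 50.4, 57.0 and 59.8 in E2 and 71.0, 64.3 and 86.9 in PaPE-1 (0.48 ± 0.14). Its vehicle and E2 libraries lay close together and below the PaPE-1 libraries. Cox5a had 0.58, Cox7b 0.50, Cox7c 0.46, Cox5b 0.46, Cox6a1 0.46, Cox7a2 0.46, Cox8a 0.41 and Cox6b1 0.39, each with PaPE-1 libraries above all vehicle libraries. The muscle form Cox7a1 measured 3.75, 3.42 and 5.16 RPKM in vehicle, 1.77, 5.50 and 3.24 in E2 and 4.41, 4.76 and 3.08 in PaPE-1, and its groups overlapped (0.00 ± 0.37).

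All 17 genes of complex V were above 0, with a median of 0.45. Atp5e, the ε subunit of the central stalk, measured 272, 228 and 274 RPKM in vehicle, 212, 350.4 and 271 in E2 and 380.2, 350.4 and 458 in PaPE-1, with 1 E2 library level with the lowest PaPE-1 library (0.62 ± 0.18). Atp5j, coupling factor 6 of the peripheral stalk, measured 54.0, 47.7 and 52.0 RPKM in vehicle, 43.4, 65.6 and 57.2 in E2 and 85.8, 66.9 and 74.1 in PaPE-1 (0.56 ± 0.17). Atp5g2 measured 44.5, 40.5 and 44.5 RPKM in vehicle, 37.3, 54.4 and 47.3 in E2 and 71.4, 60.9 and 56.1 in PaPE-1, the PaPE-1 libraries being above all others (0.54 ± 0.16). Its sister genes for subunit c had 0.36 (Atp5g3) and 0.35 (Atp5g1), and the 3 intervals overlapped. Of the peripheral stalk, Atp5h had 0.56, Atp5o (the oligomycin sensitivity protein) 0.50 and Atp5pb 0.33. The stalk subunits Atp5c1 and Atp5d had 0.41 and 0.36. The small membrane subunits had 0.60 (Atp5md), 0.51 (Atp5l), 0.49 (Atp5mpl), 0.45 (Atp5j2) and 0.41 (Atp5k). Atp5l rested on 23 to 42 reads a library, and its groups overlapped. The catalytic head subunits, the 2 most abundant of complex V, had the smallest values. Atp5b measured 713, 584 and 652 RPKM in vehicle, 571, 726 and 650.3 in E2 and 618, 787 and 712 in PaPE-1 (0.12 ± 0.15), and Atp5a1 measured 537, 421 and 466 RPKM in vehicle, 358, 529 and 425 in E2 and 489.9, 547 and 463 in PaPE-1 (0.08 ± 0.17), both with overlapping groups.

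**Figure D2:**
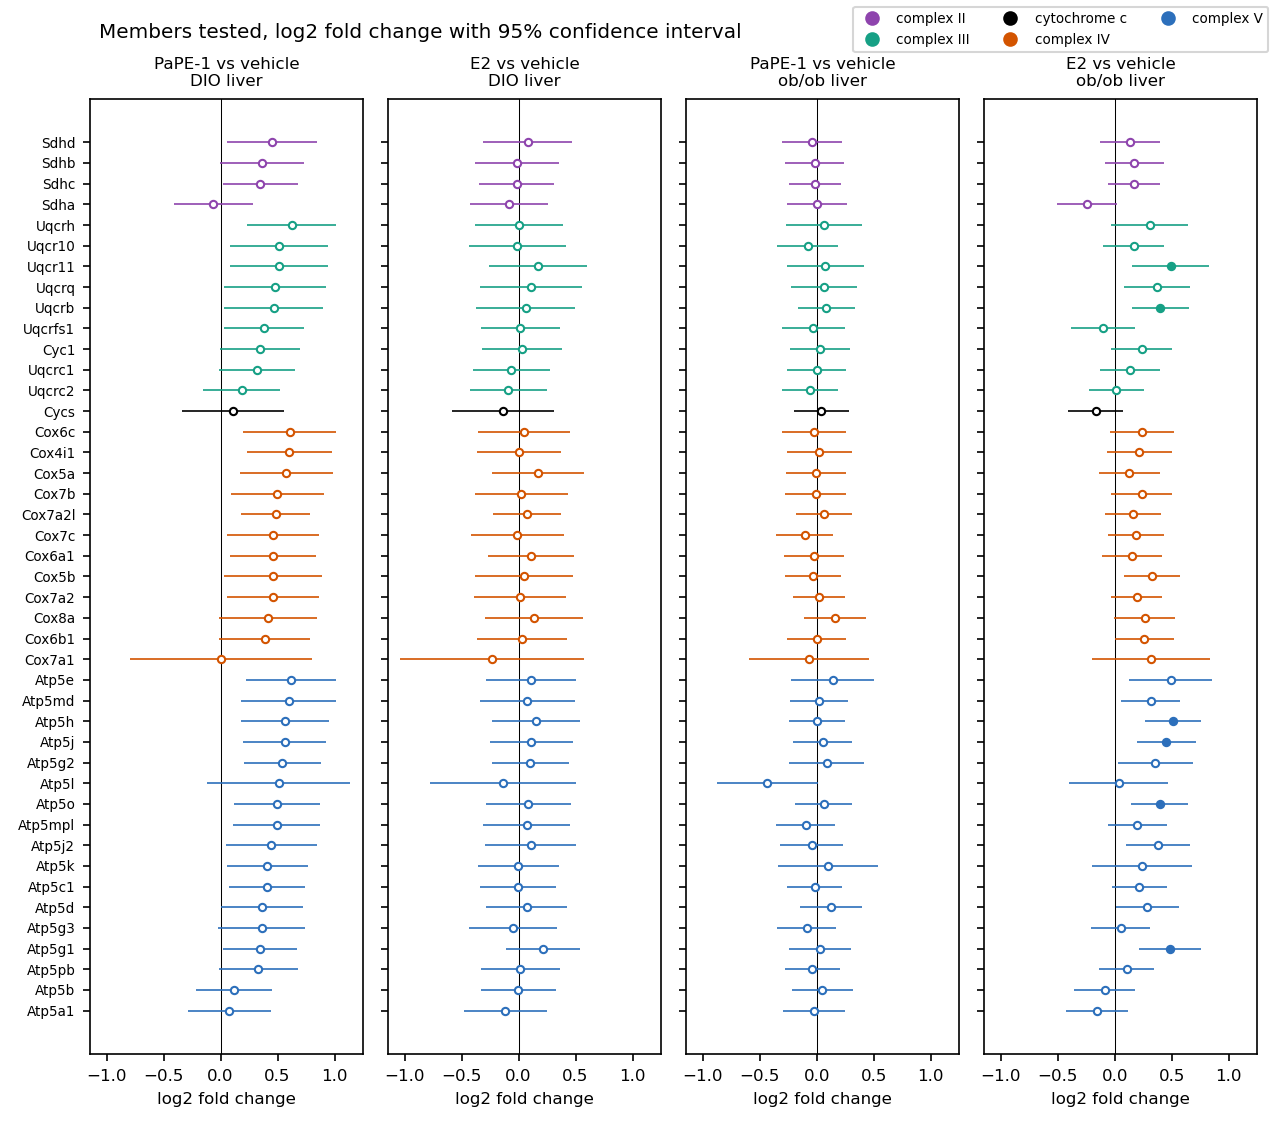
Log2 fold change (x axis) with 95% confidence interval of the 43 members tested, colored by complex, for both ligands against vehicle in DIO and ob/ob liver. Filled points have an adjusted p under 0.05. In DIO liver PaPE-1 values run from -0.06 to 0.63 with no filled point, and in ob/ob liver the 6 filled points are all under E2.

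The order of the fold changes ran with gene length. Over all genes of DIO liver the PaPE-1 fold change fell with merged exon length, from a median of 0.49 for the 247 genes under 600 bases to -0.20 for the 6267 genes over 4000 bases. The 15 members under 600 bases had a median of 0.46, beside the 0.49 of all genes of that length. The 8 members of 600 to 1000 bases had 0.50 (all genes 0.42), and the 14 of 1000 to 2000 bases 0.36 (all genes 0.26). Among members the fold change and merged exon length had a Pearson's r of -0.44 and a Spearman's rho of -0.45 (n = 43 genes, which share libraries and are not independent). When the smooth trend on length was removed from each library, the members' median fell to 0.09 (all genes -0.01), with 36 of 43 above 0 (49% of all genes). The medians by complex became 0.04 (II), 0.09 (III), 0.05 (IV) and 0.10 (V). Only Cox5a (0.57) and Atp5j (0.63) stayed higher at an unadjusted p under 0.05 (7.45% of all genes), and 0 at an adjusted p under 0.05 (0%). Both have merged exons far longer (3153 and 4137 bases) than their principal GENCODE transcripts (645 and 809 bases), which lowers their RPKM and left this correction little to take from them. With the trend taken on transcript length, an alternative chosen after the data were seen, Atp5j had 0.15 (adjusted p = 0.586). The same alternative left Atp5g1 at 0.51 ± 0.16 (adjusted p = 0.229, edgeR) and Sdhc at 0.40 ± 0.15 (adjusted p = 0.273, edgeR). Their principal GENCODE transcripts (4715 and 3171 bases) exceed their merged exons (998 and 1295 bases). Removing a trend takes away whatever short genes share, and the source of the trend was not tested.

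**Figure D3:**
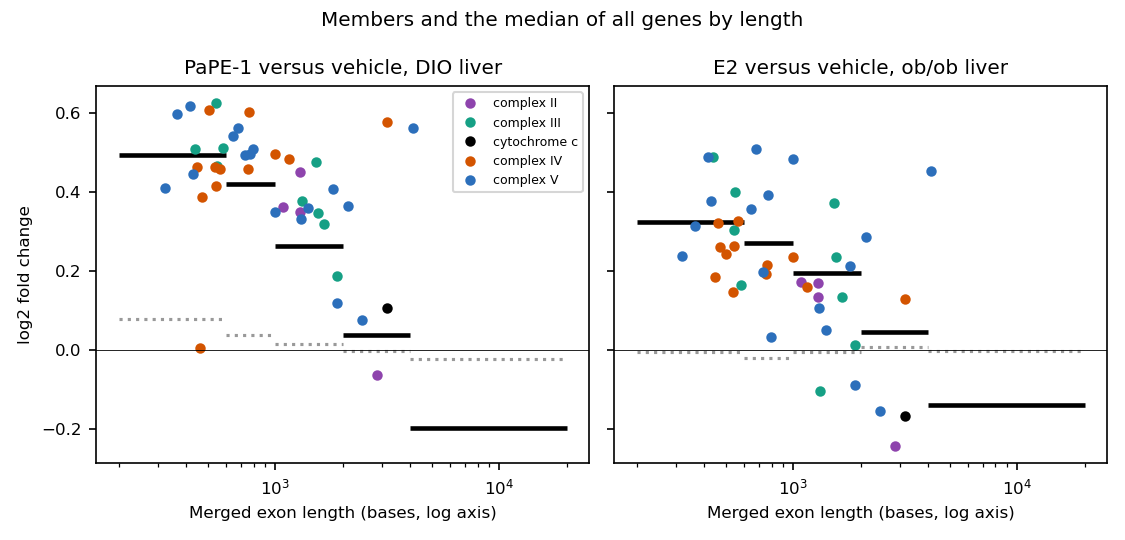
Log2 fold change (y axis) against merged exon length in bases (log axis) for the 43 members, colored by complex, with the median of all genes in each length class (black bars) and the same after the trend was removed (dotted gray). For PaPE-1 in DIO liver the members run along the black bars, and Cox5a and Atp5j stand above them on the right. For E2 in ob/ob liver the 5 members of 2000 to 4000 bases have a median of -0.15 (all genes 0.05), and Atp5j stands above the bar.

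The libraries differed in this trend one by one. At 500 bases it stood at -0.19, -0.22 and -0.09 (log2) in the DIO vehicle libraries, -0.39, 0.15 and -0.04 in E2 and 0.33, 0.14 and 0.30 in PaPE-1. The mean level of all 43 members relative to vehicle stood at 0.09, -0.11 and 0.03 in vehicle, -0.34, 0.32 and 0.03 in E2 and 0.45, 0.33 and 0.44 in PaPE-1 libraries. Replicate 1 of E2 was lowest on both measures, and replicate 2 lay beside the lowest PaPE-1 library on both. With the trend removed, the complex IV scores were 0.07, -0.05 and -0.02 in vehicle and 0.09, 0.08 and 0.06 in PaPE-1, which overlapped. The complex V scores were 0.10, -0.07 and -0.03 in vehicle and 0.11, 0.10 and 0.13 in PaPE-1, so the PaPE-1 libraries were still the highest by a small margin. The sum of hepatocyte markers, as counted, also moved with the groups. Such a sum is weighted to the most abundant genes and does not show that each marker moved. The 10 markers summed to 99320 to 112300 CPM in vehicle, 118700 to 147400 in E2 and 124100 to 150000 in PaPE-1, with none at 0. The 8 hepatic stellate cell markers summed to 356.4 to 405.6 CPM in vehicle and 280.8 to 318.2 in PaPE-1. The 8 macrophage markers summed to 250.8 to 315.6 CPM in vehicle, 362.7 to 503 in E2 and 235.2 to 352.7 in PaPE-1. Endothelial markers overlapped between vehicle (215.5 to 223.4 CPM) and PaPE-1 (209.4 to 225.9), as did cholangiocyte and blood cell markers. The part of these markers in the result, and of the length trend in the sums, was not tested.

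**Figure D4:**
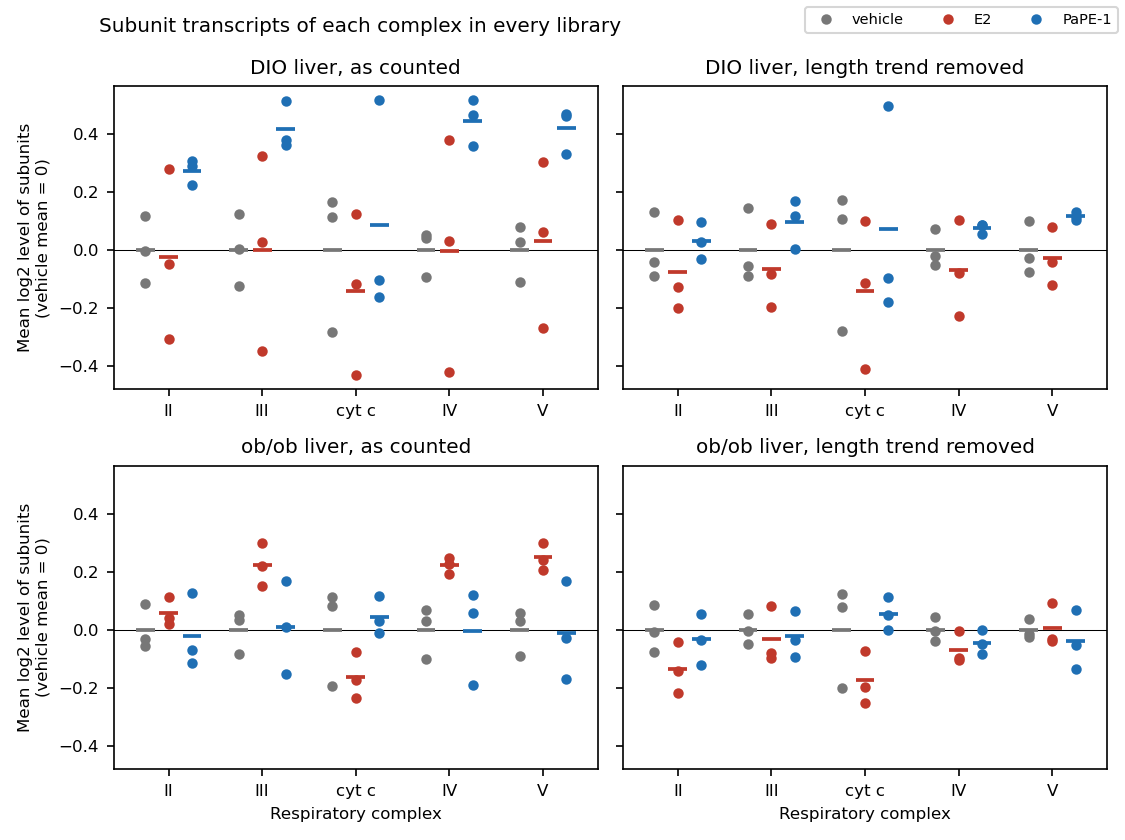
Mean log2 level of the subunit genes of each complex (y axis, vehicle mean set to 0) in every library, as counted (left) and with the length trend removed (right), in DIO (top) and ob/ob liver (bottom). Points are libraries and short bars group means. As counted, PaPE-1 stands above vehicle in complexes II to V of DIO liver and E2 above vehicle in complexes III to V of ob/ob liver, and on the right the groups draw together.

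**Figure D5:**
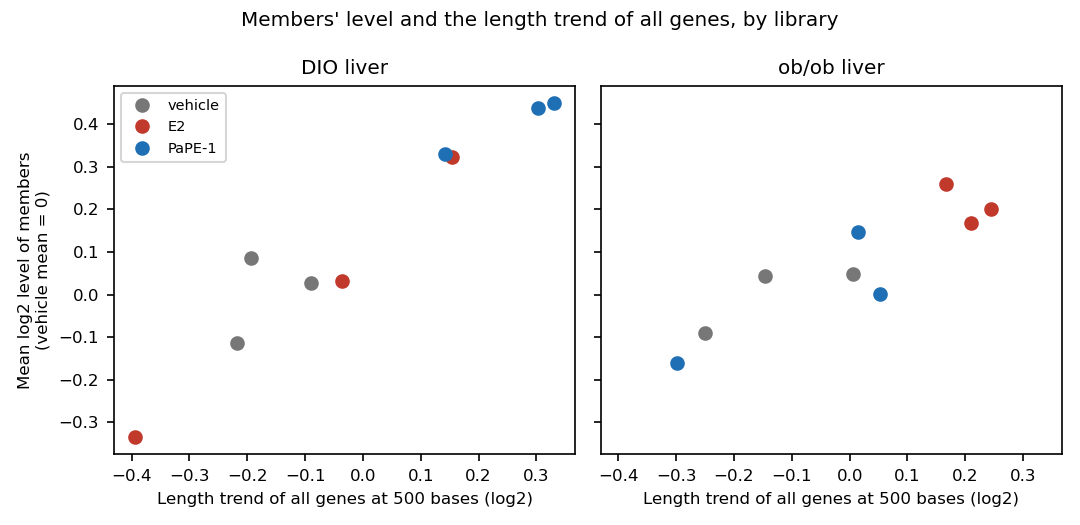
Mean log2 level of all members (y axis, vehicle mean set to 0) against the length trend of all genes at 500 bases (x axis, log2) in the 9 libraries of each model. Each point is a library. In DIO liver the E2 library at -0.39 is lowest on both axes and the PaPE-1 libraries lie at the upper right, in ob/ob liver the E2 libraries do, and within a group the order on one axis is not always that on the other.

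E2 in DIO liver shared the vehicle libraries with the comparison above. Its members had a median of 0.03 (all genes 0.01), 28 of 43 were above 0 (51.4% of all genes), and the median turned with 1 library, from -0.14 without E2 replicate 2 to 0.19 without E2 replicate 1. With all libraries 0 passed at an unadjusted (2.72% of all genes higher) or adjusted p under 0.05 by edgeR or DESeq2. The 3 E2 libraries spread more widely than the other groups, with complex IV scores of -0.42, 0.38 and 0.03. Cox4i1 had 0.00 ± 0.17 and Uqcrh 0.00 ± 0.18. The largest value belonged to Atp5g1, 0.22 ± 0.15, and the lowest to Cox7a1, -0.23 ± 0.37. Set directly against E2, PaPE-1 lay higher for all 43 members (48.1% of all genes, median 0.40, all genes -0.02), of which 23 had an unadjusted p under 0.05 (8.41% of all genes) and 0 an adjusted p under 0.05 (0.0216%). The groups did not overlap for 12 members (9.9% of all genes), and without E2 replicate 2, the highest of the E2 libraries, 8 members had an adjusted p under 0.05 (2.56%). The median was 0.57 without that library and 0.22 without E2 replicate 1. With the trend removed the median was 0.15, and 4 members had an unadjusted p under 0.05 (6.4% of all genes). The doses of the ligands differed.

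In ob/ob liver the members under PaPE-1 lay on both sides of vehicle. The median was 0.00 (all genes 0.00), 22 of 43 members were above 0 (49.7% of all genes), and by edgeR and DESeq2 0 members passed at an unadjusted (0.998% of all genes higher by edgeR) or adjusted p under 0.05 (0%). The median was -0.058 without PaPE-1 replicate 2 and 0.074 without PaPE-1 replicate 3. Cox4i1 measured 856, 1013 and 971 RPKM in vehicle, 1182, 1127 and 988 in E2 and 1059, 974 and 853 in PaPE-1 (0.02 ± 0.13, 95% interval -0.26 to 0.31). Uqcrh measured 417, 506 and 455 RPKM in vehicle, 659.6, 524 and 519 in E2 and 526, 543 and 371 in PaPE-1 (0.06 ± 0.16). For both genes PaPE-1 replicate 1 lay above and replicate 3 below all vehicle libraries. Atp5l, on low counts, had the largest value of any member, -0.43 ± 0.21.

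The effect of PaPE-1 was then compared between the models in 1 fit over all 18 libraries. The DIO effect was more positive than the ob/ob effect for 43 of 44 members (49.7% of all genes), with a median difference of 0.45 (all genes 0.00). The unadjusted p was under 0.05 for 21 members (7.29% of all genes), and the adjusted p for 0 (0%) by edgeR and 0 by DESeq2. With the trend removed the median difference was 0.12, and 2 members kept an unadjusted p under 0.05 (4.91%). For Cox4i1 the difference was 0.59 ± 0.22 (adjusted p = 0.304, edgeR). The models also differ in genotype, diet and count table, and these cannot be told apart.

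E2 in ob/ob liver raised 6 members at an adjusted p under 0.05 (9.81% of all genes were higher by this rule) and lowered 0 (12.3%). At an unadjusted p under 0.05 the counts were 14 higher (17.8% of all genes) and 0 lower (19.9%). The 6 were 4 genes of complex V and 2 of complex III. Their share was near that of all genes. The median of all members was 0.21 (all genes 0.01), 38 of 43 were above 0 (50.6% of all genes), and the groups did not overlap for 27 members with E2 higher (20.7% of all genes) and for 1, Sdha, with E2 lower (20.8%).

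Atp5h, of the peripheral stalk (chr11:115306517-115310745), measured 324, 355 and 371 RPKM in vehicle, 473, 550.2 and 470.0 in E2 and 345, 363 and 341 in PaPE-1 (0.51 ± 0.12, adjusted p = 0.0099). Every E2 library exceeded every other ob/ob library. Atp5g1, 1 of the 3 genes of subunit c, measured 129, 149 and 142 RPKM in vehicle, 194, 199.7 and 195 in E2 and 130.1, 171 and 128 in PaPE-1 (0.48 ± 0.13, adjusted p = 0.0175). Its sisters had 0.36 ± 0.15 (Atp5g2) and 0.05 ± 0.12 (Atp5g3), neither past the adjusted test. Atp5j measured 40.9, 39.5 and 42.4 RPKM in vehicle, 56.6, 59.7 and 51.8 in E2 and 38.0, 49.0 and 40.6 in PaPE-1 (0.45 ± 0.12, adjusted p = 0.0193), with E2 above the other groups. Atp5o measured 245, 264 and 275 RPKM in vehicle, 348, 353 and 329 in E2 and 268, 305 and 245 in PaPE-1 (0.39 ± 0.12, adjusted p = 0.0284). Of complex III, Uqcrb measured 243, 252 and 284 RPKM in vehicle, 330.4, 357 and 340.3 in E2 and 254, 312 and 259 in PaPE-1 (0.40 ± 0.12, adjusted p = 0.0277), and Uqcr11 (chr10:80238831-80242655) measured 359, 382 and 380.1 RPKM in vehicle, 567, 519 and 487 in E2 and 414, 480.4 and 288 in PaPE-1 (0.49 ± 0.16, adjusted p = 0.039). For Uqcr11 the second PaPE-1 library came close to the E2 libraries.

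In complex IV 12 of 12 genes were above 0 (median 0.23), and 0 passed the adjusted test by edgeR (9.81% of all genes higher). An unadjusted p under 0.05 was found for 2 of them (17.8% of all genes higher). DESeq2, by which 9.56% of all genes were higher, called 1, Cox5b. It measured 304, 342 and 348 RPKM in vehicle, 430.2, 419 and 396 in E2 and 351, 329 and 293 in PaPE-1 (0.33 ± 0.11, adjusted p = 0.0551 by edgeR, 0.0468 by edgeR on genes with at least 10 counts in every library and 0.0291 by DESeq2), with E2 above all other libraries. Cox6b1 measured 609, 674 and 691 RPKM in vehicle, 777, 809 and 778 in E2 and 688, 717 and 571 in PaPE-1 (0.26 ± 0.12, adjusted p = 0.131), again with E2 highest. Complex II had a median of 0.15. There Sdhc measured 189.6, 201 and 202 RPKM in vehicle, 222, 226 and 219 in E2 and 199.9, 204 and 183 in PaPE-1 (0.17 ± 0.11), whereas Sdha went the other way, at 175, 159.8 and 178 RPKM in vehicle, 159.7, 129 and 144 in E2 and 162, 183 and 168 in PaPE-1 (-0.24 ± 0.12, adjusted p = 0.159). The others below 0 were Cycs (-0.17 ± 0.11), Atp5a1 (-0.15 ± 0.13), Uqcrfs1 (-0.10 ± 0.13) and Atp5b (-0.09 ± 0.13). Against E2, PaPE-1 was lower at an adjusted p under 0.05 for 5 members (7.45% of all genes), namely Atp5h, Atp5g1, Atp5j, Atp5j2 and Cox5b. Atp5j2 measured 276, 308 and 320.2 RPKM in vehicle, 405, 385 and 384 in E2 and 308, 333 and 236 in PaPE-1 (-0.42 ± 0.13, adjusted p = 0.0402), and Atp5h had -0.51 ± 0.12. Without E2 replicate 2 the 5 became 0 (1.46% of all genes). They became 2 without vehicle replicate 3 (6.48%) or E2 replicate 1 (7.99%). They became 1 without E2 replicate 3 (3.26%), PaPE-1 replicate 1 (4.57%) or PaPE-1 replicate 3 (2.54%). The median of this comparison over all members, -0.23, was -0.14 without PaPE-1 replicate 3.

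This rise also ran with gene length. Members under 600 bases had a median of 0.30, beside 0.32 for all 228 genes of that length. Those of 600 to 1000 bases had 0.29 (all genes 0.27) and those of 1000 to 2000 bases 0.15 (all genes 0.19). The 5 members of 2000 to 4000 bases had -0.15 (all genes 0.05), and -0.18 with the trend removed (all genes 0.01). The r of fold change and length over members was -0.52 (rho -0.55, n = 43 genes). Over all members the median with the trend removed was -0.07, and 14 of 43 were above 0 (49.7% of all genes). With the trend removed 1 member was higher at an adjusted p under 0.05 (8.09% of all genes), Atp5j (0.52). With the trend on transcript length Atp5j had 0.15 (adjusted p = 0.423) and the 1 member called was Atp5g1 (0.65, adjusted p = 0.0094), whose principal GENCODE transcript (4715 bases) exceeds its merged exons (998 bases). The complex V scores of the E2 libraries went from 0.30, 0.24 and 0.21 to 0.09, -0.04 and -0.03. The calls also hung on single libraries. They were 0 (2.52% of all genes) without E2 replicate 2, 2 (4.64%) without E2 replicate 3, 2 (7.04%) without vehicle replicate 1 and 11 (11% of all genes) without PaPE-1 replicate 3. The summed hepatocyte markers were 170400 to 189000 CPM in E2 and 111400 to 141900 in vehicle, and 8 endothelial markers summed to 255.7 to 316.7 CPM in E2 and 149.7 to 166.6 in vehicle. Macrophage markers summed to 319.4 to 440.6 CPM in E2 and 167.6 to 230.8 in vehicle. Stellate cell markers overlapped, at 440.5 to 503.7 CPM in E2 and 479.6 to 618.4 in vehicle. So did cholangiocyte markers, at 161.1 to 194.9 CPM in E2 and 125.1 to 550.5 in vehicle. The 9 blood cell markers summed to 437 to 783.8 CPM in E2, 206.2 to 391.5 in vehicle and 284.7 to 2282 in PaPE-1. The part of these markers in the result was not tested. The E2 effect was lower in DIO than in ob/ob liver for 37 of 44 members (50.2% of all genes), with a median difference of -0.18, which ran from -0.37 without DIO E2 replicate 2 to -0.048 without DIO E2 replicate 1. With the length trend removed the direction turned, to a median of 0.011 with 20 of 44 members lower (49.3% of all genes). As counted, 0 members had an unadjusted p under 0.05 (6.94%), and 0 an adjusted p under 0.05 by edgeR (0.00706%) or DESeq2.

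Genes that work with these complexes were followed from lists. In complex I, the entry point for NADH, 37 subunits were tested. In DIO liver 36 lay above 0 under PaPE-1 (47.1% of all genes, median 0.47, and 0.13 with the trend removed), and in ob/ob liver 6 rose (9.81% of all genes) and 1 fell (12.3%) under E2 (median 0.24, and -0.04 with the trend removed). The one that fell was Ndufs1, the largest iron-sulfur subunit (-0.40 ± 0.11, adjusted p = 0.0193). For assembly factors and regulators the same shares of all genes apply. Their fold changes are given as counted only, with the length trend still in them. Under E2 in ob/ob liver the median of all genes was 0.32 under 600 bases and -0.14 over 4000 bases. Under PaPE-1 in DIO liver these medians were 0.49 and -0.20. The fit with the trend removed also covered the factors and regulators, but its values for them are not given here. The part of gene length in the values of single factors and regulators is therefore not shown. Of 22 factors for complex IV, 19 were above 0 in DIO liver under PaPE-1 (47.1% of all genes, median 0.29, none past the adjusted test), with the largest values for Coa6 (0.81 ± 0.22) and Pet100 (0.74 ± 0.18). In ob/ob liver under E2 1 of them rose, Surf1 (0.57 ± 0.12, adjusted p = 0.00723). In the same comparison 3 fell, namely Coa5 (-0.52 ± 0.12), Cox15, which makes heme a (-0.46 ± 0.11, adjusted p = 0.0136), and Lrpprc, which stabilizes mitochondrial messenger RNA (-0.34 ± 0.10).

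Of 7 factors for complex III and cytochrome c, Uqcc3 rose under E2 in ob/ob liver (0.56 ± 0.15, adjusted p = 0.0186) and Hccs, which attaches heme to cytochrome c, fell (-0.61 ± 0.15, adjusted p = 0.012). Of 5 factors for complex V, Fmc1 rose there (0.43 ± 0.13, adjusted p = 0.0334), and it had 0.72 ± 0.17 under PaPE-1 in DIO liver (adjusted p = 0.0714). None of the 4 factors for complex II passed the adjusted test in either comparison. Among 12 regulators of respiratory genes, the coactivators Ppargc1a (-0.56 ± 0.17, adjusted p = 0.0312) and Ppargc1b (-0.67 ± 0.17, adjusted p = 0.0141) fell under E2 in ob/ob liver, and none rose. In DIO liver none of the 12 passed the adjusted test under PaPE-1, where Ppargc1a had -0.61 ± 0.22, Nrf1 -0.02 ± 0.20, Gabpa -0.40 ± 0.17 and Tfam, which packages mitochondrial DNA, 0.27 ± 0.12. The 12 regulators had a median of 0.02 there.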

How the data were processed

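RNA-seq was done on liver of 18 libraries. The deposited counts are whole reads per gene that the authors obtained with STAR 2.7.6a and featureCounts 2.0.0 (strand option 2, RefSeq annotation of GRCm39, from the file headers and labels), without reads mapped to several places. The Length column of the deposited tables, the merged exon length, served RPKM and the length trend, and the authors' tables of fold changes and p-values were not used. Totals were 10470665 to 21703791 counts. Each model's 9 libraries were fitted in edgeR 4.0.16 (R 4.3.3; filterByExpr, TMM, robust glmQLFit, glmQLFTest), with groups from the labels, and all 18 for differences between models. The trend was a loess curve (span 0.5) of log2 CPM deviations on log2 length per library, used as an offset. DESeq2 1.42.0 and limma 3.58.1 (voom) served as alternatives, and calls use an adjusted p of 0.05. Scripts were tested on simulated counts.

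Per-library values are given for the 3 members of each complex with the smallest p for PaPE-1 in DIO liver, the 2 with the smallest p for E2 in ob/ob liver, tissue isoforms, called members, Cox4i1 and Cycs. Cyc1, Atp5a1 and Atp5b were named by their place in the order of levels or fold changes, after their values were seen. Members and lists were chosen with earlier results of these data known.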

Additional observations from a re-analysis of the deposited data

How the results depend on the processing

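No paired analysis was possible because the labels give the libraries no shared numbers or animals across groups. Groups of 3 libraries limit these tests, and members with few reads (Atp5l, Cycs, Cox7a1) are the least certain. For PaPE-1 against vehicle in DIO liver (0 members higher, median 0.46), DESeq2 called 9 higher (4.72% of all genes). The fit of only the 2 groups called 10 higher (3.43%). The median of this comparison was 0.092 with the length trend removed and 0.094 with the trend on principal transcript length. In DESeq2 with the trend removed it was 0.10, with 1 member higher, Atp5j (1.1% of all genes). With total counts alone it was 0.26 (all genes -0.23). For PaPE-1 against E2 in DIO liver (median 0.40) these 3 trend corrections gave 0.15, 0.13 and 0.15. For E2 against vehicle in ob/ob liver (6 higher, 9.81% of all genes, median 0.21), DESeq2 called 10 higher (9.56%). The 2 groups alone also called 10 higher (10.6%). The 3 trend corrections called 1 each (8.09%, 7.18% and 8.88% of all genes), with medians of -0.074, -0.0799 and -0.075. Total counts called 3 higher (6.25%) and 1 lower (18.8%), with a median of 0.10. For PaPE-1 against E2 in ob/ob liver (5 lower, 7.45% of all genes, median -0.23), no filter called 3 lower (4.32%). The 2 groups alone called 2 lower (7.23%). The 3 trend corrections called 1 each, with medians of 0.013, 0.033 and 0.015. With the trend on merged exon length removed, 5.99% of all genes were lower by this rule. Total counts called 1 lower and 1 higher. Shares of all genes for the other corrections and for total counts are not given here. The differences between models had medians of 0.12 for PaPE-1 and 0.011 for E2 with the trend removed, against 0.45 and -0.18. The trend on transcript length, DESeq2 with the trend removed and total counts were added after the data were seen.

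In DIO liver, leaving out each library in turn gave 0 to 8 members higher for PaPE-1 against vehicle. The 8 came without E2 replicate 1 (2.74% of all genes). For PaPE-1 against E2 there it gave 0 to 8 higher, 8 without E2 replicate 2 (2.56%). In ob/ob liver E2 against vehicle ran from 0 higher without E2 replicate 2 (2.52%) to 11 without PaPE-1 replicate 3 (11%). PaPE-1 against E2 there had 0 to 7 lower, 0 without E2 replicate 2 (1.46%). The differences between models in PaPE-1 and E2 had medians of 0.34 to 0.50 and -0.37 to -0.048. With the length trend removed, the PaPE-1 scores in DIO liver moved from 0.41 to 0.092 for all members, 0.27 to 0.031 for complex II, 0.42 to 0.10 for III, 0.45 to 0.076 for IV and 0.42 to 0.12 for V, and the E2 scores in ob/ob liver from 0.21 to -0.039 for all members, 0.06 to -0.13 for II (0.14 by the median), 0.22 to -0.032 for III, 0.22 to -0.069 for IV and 0.25 to 0.0077 for V. Of single members, Uqcrb under PaPE-1 in DIO liver turned to -0.0085 on transcript length. Under E2 in ob/ob liver Cox5b turned to -0.0009 with the trend removed and -0.0022 in DESeq2 with the trend removed, and Cox6b1 to -0.081, -0.078 and -0.082 in the 3 corrections. For PaPE-1 against E2 in ob/ob liver Cox6b1 turned to 0.021, 0.037 and 0.024 and Uqcrb to 0.0115 on transcript length. The source of these shifts was not tested.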
